A study of Arabidopsis thaliana with 2 samples.

Results

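Transcripts of 10 genes that mark a low sulfur supply in Arabidopsis were compared between wild-type (WT) and jmj17-1 seedlings, as part of the 26743 features of the deposited table. The genes were LSU1 to LSU4, SDI1, SDI2, SHM7, the sulfate transporter genes SULTR1;1 and SULTR1;2, and BGLU28. They were picked by locus identifier with their levels in these same libraries already known, so every value below is a description. Each of the 10 loci had a row in the table.

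The samples were whole Arabidopsis thaliana seedlings in the Col-0 background, aged 7 days. They grew on plates of diluted Murashige and Skoog (MS) medium lacking sucrose, in long days of 16 h light and 8 h dark. The WT group was the unmutated Col-0 line and the jmj17-1 group carried a mutation of JMJ17, a demethylase of lysine 4 of histone H3. There was 1 library per genotype, so no difference has a replicate check and no test was made.

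The values are RPKM, reads per kilobase of feature per 1000000 reads of the library. They rested on totals of 53890006 reads in WT and 45403267 in jmj17-1, recovered from the steps between low values. JMJ17 (AT1G63490) itself stood at 5.48 RPKM in WT against 2.90 in jmj17-1, a lower level in the library labelled as mutant, but where in the gene the mutation lies is not given, and reads from outside it can remain. Root markers were present in the whole seedlings, with none of the 14 at 0, a summed level of 163 RPKM in WT against 162 in jmj17-1, and 6 of the 13 analysed lower and 7 higher in jmj17-1. Some moved beyond counting error in either direction, with plain ratios of 2.18 (95% counting interval 1.52 to 3.15) for WOX5, 1.38 (1.26 to 1.51) for PRP3 and 0.774 (0.632 to 0.946) for MYB36. The 5 shoot markers summed to 25114 RPKM in WT against 21264 in jmj17-1, none was at 0, and LHCA1 and RBCS3B had the lowest ratios, 0.713 and 0.745. The part of organ make-up in the results was not tested, and in whole seedlings fewer cells of a type and less RNA per cell cannot be told apart.

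Plants take up sulfur as sulfate through root transporters, then reduce it and join it to O-acetylserine to make cysteine. When sulfate runs short, O-acetylserine builds up and a set of genes is induced, largely through the transcription factor SLIM1. LSU, SDI and BGLU28 transcripts are widely used as readouts of this state, because they are low in well-fed plants and accumulate strongly during starvation.

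Of the 10 genes, 8 reached a mean of 1 RPKM over the libraries, and of these 7 had a lower level in jmj17-1, the exception being LSU4. Of all features with such a mean 39.5% were lower. The members were chosen with this contrast known, so nothing is read from their count. Levels of LSU1, LSU3 and SDI1 were between 3.31-fold and 4.01-fold lower, SDI2 and SHM7 about 2-fold lower, and LSU2 and SULTR1;2 less so. SULTR1;1 and BGLU28 lay under 1 RPKM in each library. The sum of the 10 genes was 158 RPKM in WT against 78.7 in jmj17-1, with SHM7 and SDI2 as its largest parts in each library.

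**Figure D1:**
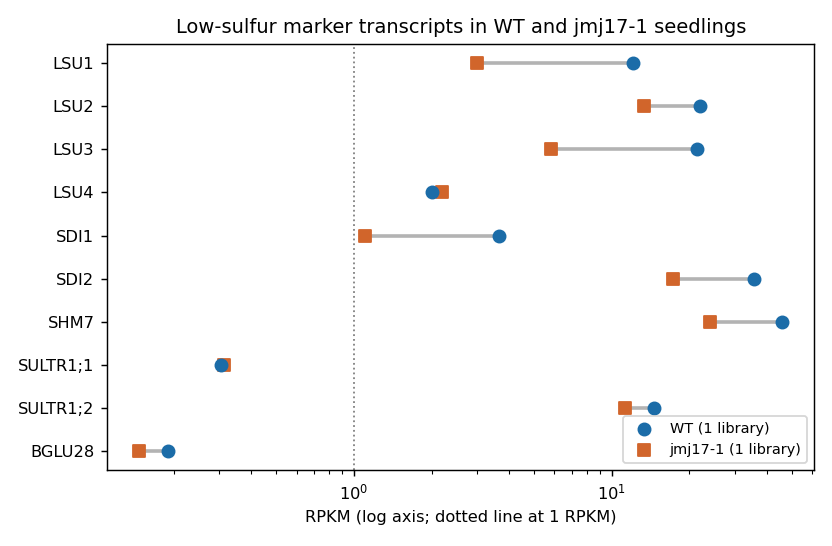
RPKM of the 10 genes on a log axis, with a circle for the WT library and a square for the jmj17-1 library (1 library each). The grey line between the symbols is longest for LSU1, LSU3 and SDI1, and the symbols nearly coincide for SULTR1;1 and LSU4.

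The LSU genes encode small plant-specific proteins, and they form 2 neighbouring pairs on minus strands. LSU3 and LSU1 are 1760 bases apart on chromosome 3 and LSU4 and LSU2 are 1914 bases apart on chromosome 5, each with no measured gene between them. The coding sequences are shown to let the pairs be compared base by base, as read 5′ to 3′ from RefSeq's TAIR10.1. Each is a single coding exon, and capitals mark every base that differs from the aligned base of the pair partner or has no counterpart in it. Gaps at the ends carried no cost, so the final TAG that LSU4 and LSU2 share was not aligned and is partly in capitals.
LSU3 (chr3:18372659-18372952, minus strand): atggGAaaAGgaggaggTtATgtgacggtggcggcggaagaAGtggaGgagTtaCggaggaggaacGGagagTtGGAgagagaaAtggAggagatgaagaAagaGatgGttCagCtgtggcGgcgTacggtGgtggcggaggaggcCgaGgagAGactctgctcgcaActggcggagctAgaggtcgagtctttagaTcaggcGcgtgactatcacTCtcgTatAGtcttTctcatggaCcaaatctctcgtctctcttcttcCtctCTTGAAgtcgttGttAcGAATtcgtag
LSU1 (chr3:18375435-18375719, minus strand): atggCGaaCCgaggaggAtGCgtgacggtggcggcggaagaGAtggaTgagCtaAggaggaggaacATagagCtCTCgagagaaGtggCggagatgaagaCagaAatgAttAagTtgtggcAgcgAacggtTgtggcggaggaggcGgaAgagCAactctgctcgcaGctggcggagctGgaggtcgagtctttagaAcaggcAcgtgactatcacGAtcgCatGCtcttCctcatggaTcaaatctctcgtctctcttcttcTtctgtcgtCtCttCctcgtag
LSU4 (chr5:8440859-8441137, minus strand): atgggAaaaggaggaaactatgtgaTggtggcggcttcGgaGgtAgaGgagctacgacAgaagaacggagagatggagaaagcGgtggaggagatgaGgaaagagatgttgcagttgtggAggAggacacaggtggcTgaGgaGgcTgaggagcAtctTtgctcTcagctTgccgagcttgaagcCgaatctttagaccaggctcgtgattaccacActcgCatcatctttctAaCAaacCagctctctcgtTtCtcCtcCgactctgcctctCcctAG
LSU2 (chr5:8443472-8443756, minus strand): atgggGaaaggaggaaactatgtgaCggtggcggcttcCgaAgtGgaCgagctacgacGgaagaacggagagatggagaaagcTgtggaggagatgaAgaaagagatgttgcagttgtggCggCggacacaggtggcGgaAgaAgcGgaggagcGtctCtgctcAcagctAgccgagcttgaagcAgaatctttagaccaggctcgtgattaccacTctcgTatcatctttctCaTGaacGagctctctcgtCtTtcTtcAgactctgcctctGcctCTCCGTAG

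The coding sequences of LSU3 and LSU1 were 83.8% identical over 284 aligned bases, with 46 mismatches. Those of LSU4 and LSU2 were closer, at 88.2% identity over 279 bases with 33 mismatches, among them bases of the final TAG of LSU4. Between the pairs, identity ran from 70.3% for LSU1 and LSU4 to 78.9% for LSU2 and LSU3. No transcript of another locus matched any LSU transcript at 95% identity or more over at least 100 bases.

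LSU3 (AT3G49570) stood at 21.5 RPKM in WT against 5.84 in jmj17-1, from 595 and 136 reads. The jmj17-1 level was 0.271 of the WT level (95% counting interval 0.224 to 0.327, exact Clopper-Pearson). All intervals given cover counting error only and not the spread between seedlings.

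Its neighbour LSU1 (AT3G49580) stood at 12.1 RPKM in WT against 3.01 in jmj17-1, a ratio of 0.250 (0.174 to 0.351). Its reads were recovered as 195 and 41, the smallest whole numbers its values allow, so its interval is the widest of those possible. The intervals of LSU1 and LSU3 overlap, so at this depth the ratios of the adjacent genes cannot be told apart.

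LSU2 (AT5G24660) stood at 22.0 RPKM in WT, close to LSU3 there, and at 13.3 RPKM in jmj17-1, a ratio of 0.603 (0.530 to 0.686). LSU4 (AT5G24655), the LSU gene with the lowest WT level, stood at 2.01 RPKM in WT against 2.20 in jmj17-1, a ratio of 1.09 (0.755 to 1.58). In the LSU4 and LSU2 pair, the closer in coding sequence, the counting intervals of the ratios therefore lay apart. The interval of LSU2 also lay above those of LSU1 and LSU3. LSU4 rested on 64 and 59 reads, and its interval spans no change.

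For a log2 ratio, 1 was added to each RPKM value before jmj17-1 was divided by WT, so changes of low genes come out too small, while a plain ratio has nothing added. A feature counted as 2-fold different at a log2 ratio of at least 1 in size, among the 18969 features with a mean of at least 1 RPKM. Of all those features 0.58% were at least 2-fold lower and 0.39% at least 2-fold higher, and the median log2 ratio was 0.04. Of the 8 members among them 3 were at least 2-fold lower, LSU1, LSU3 and SDI1, and 0 were at least 2-fold higher. The choice of the members used this same contrast, so nothing is read from that count.

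LSU3 and LSU1 had log2 ratios of -1.72 and -1.70 and were 31st and 32nd from the lowest of the 18969 features. SDI1 at -1.15 was 75th. Just outside the limit lay SDI2 at -0.99 and SHM7 at -0.90, and just inside it SDI1. LSU2 at -0.69 had 1.35% of features at or below it. The members were chosen with this contrast known, so nothing is read from these ranks or this share.

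**Figure D2:**
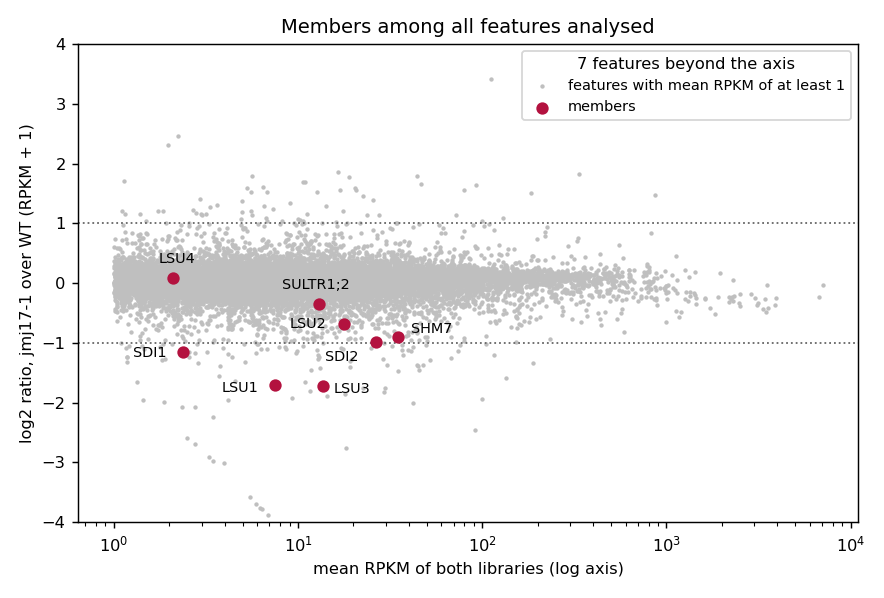
Log2 ratio of jmj17-1 over WT (RPKM + 1) against the mean RPKM of both libraries (log axis) for the features with a mean of at least 1 RPKM in grey and the 8 members among them in red. LSU1, LSU3 and SDI1 lie below the dotted line at -1, while LSU4 lies within the grey band, and 7 features fall beyond the plotted range.

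Most genes around the LSU pairs had log2 ratios near 0. Of the 10 measured protein-coding genes nearest to LSU4 and LSU2, 5 on each side, 9 reached a mean of 1 RPKM, and their log2 ratios ran from -0.09 to 0.20. Around LSU3 and LSU1, 8 of 10 reached it, and 1 of them was at least 2-fold different, in the opposite direction. That gene was DIN11 (AT3G49620), known as dark-inducible, with 4.98 RPKM in WT against 11.3 in jmj17-1. The lowest of the 8 was the NAC transcription factor gene NAC062 (AT3G49530) at 16.4 RPKM in WT against 8.43 in jmj17-1.

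The immediate neighbours differed from the pair in ratio. AT3G49560, 264 bases from LSU3, stood at 79.3 RPKM in WT against 84.4 in jmj17-1. ATG13, an autophagy gene 1468 bases from LSU1, stood at 11.4 RPKM in WT against 9.48 in jmj17-1. Neither neighbour came near the ratios of the LSU genes they flank. Beside LSU4, AT5G24650 had a log2 ratio of 0.18, and beside LSU2, EMB2820 had 0.02.

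**Figure D3:**
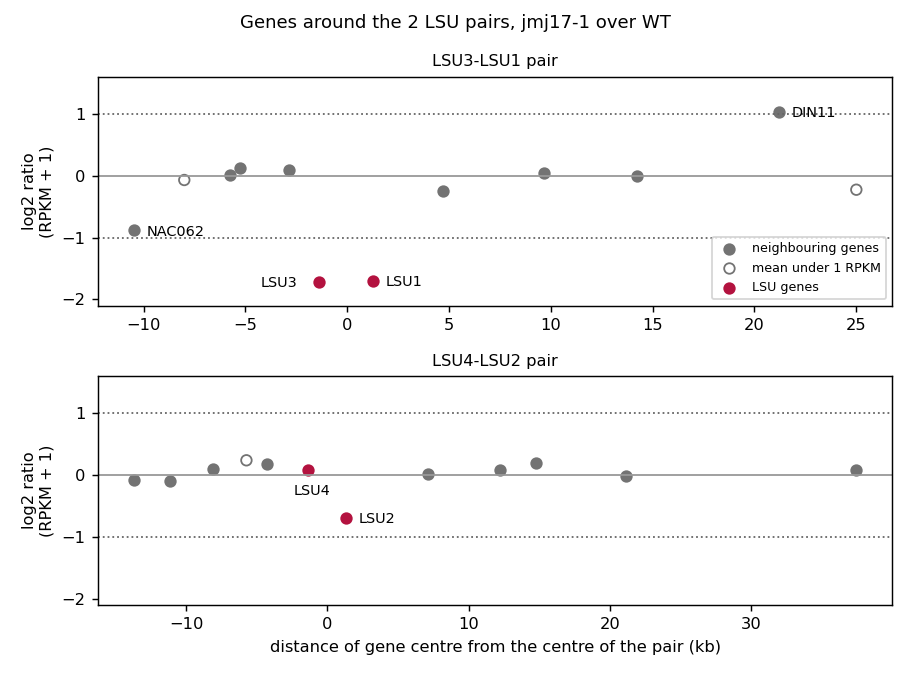
Log2 ratio of jmj17-1 over WT (RPKM + 1) against the distance of each gene's centre from the centre of the LSU3-LSU1 pair (top) and the LSU4-LSU2 pair (bottom), in kb, with LSU genes in red and open circles for genes under a mean of 1 RPKM. Both genes of the top pair lie near -1.7, while in the bottom pair LSU2 lies lower at -0.69 and LSU4 at 0.09.

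SDI1 and SDI2 encode related tetratricopeptide-repeat proteins, and SDI1 is known to restrain aliphatic glucosinolate synthesis by binding MYB28. SDI1 (AT5G48850, chr5:19805437-19807853, minus strand, 4 exons) stood at 3.66 RPKM in WT against 1.11 in jmj17-1, from 224 and 57 reads. Its ratio was 0.302 (0.222 to 0.406). This interval overlaps those of LSU1 and LSU3.

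SDI2 (AT1G04770, chr1:1336274-1337849, minus strand, 4 exons) was far more abundant, at 35.5 RPKM in WT against 17.3 in jmj17-1. From 2600 and 1069 reads its ratio was 0.488 (0.454 to 0.524), and this interval lies above that of SDI1. The coding sequences of the pair were 65.2% identical over 889 aligned bases. SDI2 overlaps VAMP726 (AT1G04760), a gene of the opposite strand, over 431 bases. VAMP726 stood at 4.19 RPKM in WT against 4.21 in jmj17-1, and the division of reads there is uncertain, because nothing states whether counting used strand. Of 3 other related tetratricopeptide-repeat genes only AT3G51280 reached a mean of 1 RPKM, with 15.1 RPKM in WT against 15.7 in jmj17-1.

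SHM7 (AT1G36370, chr1:13696042-13698739, minus strand, 4 exons) belongs to the serine hydroxymethyltransferases, which interconvert serine and glycine, and its transcript is known to follow O-acetylserine together with LSU1 and SDI1. It was the most abundant member in each library, at 45.9 RPKM in WT against 24.2 in jmj17-1. From 5122 and 2270 reads its ratio was 0.526 (0.5004 to 0.553), the narrowest interval relative to its value of the 10. Other members of the enzyme family did not share this ratio. SHM1, the mitochondrial enzyme of photorespiration, stood at 999 RPKM in WT against 945 in jmj17-1 and SHM6, the closest in sequence, at 8.67 and 9.47. The counting intervals of SHM1 (0.938 to 0.955) and SHM6 (1.01 to 1.19) lay above that of SHM7. SHM2 and SHM4, the largest of the family in absolute log2 ratio, stood at 25.6 and 109 RPKM in WT and at 31.3 and 125 in jmj17-1. Of 5 such genes with a mean of at least 1 RPKM, log2 ratios ran from -0.08 to 0.28 and 0 were 2-fold different.

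**Figure D4:**
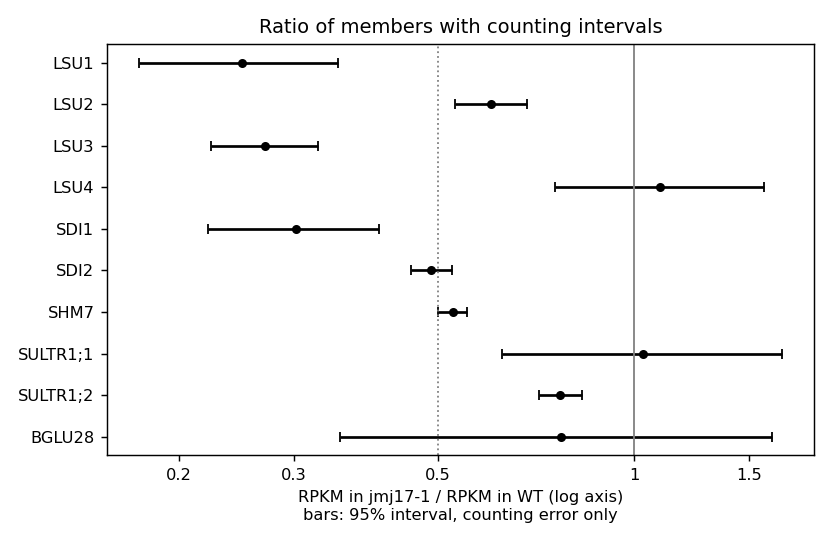
Ratio of RPKM in jmj17-1 to RPKM in WT for each member (point, log axis) with its 95% counting interval (bar), which covers counting error only. Intervals of LSU4, SULTR1;1 and BGLU28 include 1, and those of LSU1, LSU3 and SDI1 lie wholly below the dotted line at 0.5.

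SULTR1;1 and SULTR1;2 encode the high-affinity transporters that bring sulfate into the root, and SULTR1;1 is the more strongly induced of the pair during starvation. SULTR1;1 (AT4G08620, chr4:5500313-5506313, plus strand, 13 exons) stood at 0.305 RPKM in WT against 0.315 in jmj17-1, from 38 and 33 reads. Its ratio was 1.03 (0.626 to 1.69), an interval that includes no change. This interval lies above those of SDI2 and SHM7 but overlaps that of LSU2. SULTR1;2 (AT1G78000, chr1:29327515-29333220, plus strand) was the more abundant, at 14.6 RPKM in WT against 11.3 in jmj17-1. Its ratio of 0.770 (0.714 to 0.830) lay below 1 by more than counting error, and its log2 ratio was -0.35.

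The other sulfate transporter genes went both ways. Of 10, 9 reached a mean of 1 RPKM, 5 of them lay below a log2 ratio of 0 and 4 above, and 0 were 2-fold different. For comparison, 39.5% of all features with such a mean lay below 0. The largest were SULTR3;3 at 8.09 RPKM in WT against 12.1 in jmj17-1 and SULTR3;1 at 2.41 and 1.54. SULTR3;1 is known as a sulfate transporter of the chloroplast envelope. SULTR2;1, which loads sulfate for transport between organs, stood at 43.7 RPKM in WT against 37.9 in jmj17-1.

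BGLU28 (AT2G44460, chr2:18346306-18350026, plus strand) encodes a β-glucosidase that releases sulfur from stored glucosinolates in starved plants. It had the lowest level of all members, 0.190 RPKM in WT against 0.147 in jmj17-1. These values stand on 20 and 13 reads, and the ratio of 0.771 had an interval of 0.353 to 1.63. This interval includes no change as well as a 2-fold lower level, which cannot be told apart at this depth. Its tandem neighbour BGLU29, 4159 bases away, had a single read's worth of signal in each library, at 0.008 RPKM in WT against 0.009 in jmj17-1. Of 11 other β-glucosidase genes listed between BGLU18 and BGLU32, a part of the family, 6 reached a mean of 1 RPKM. Of these 6, 0 were 2-fold different. BGLU18, known for releasing abscisic acid from its glucose ester, was the lowest in ratio of the 6, at 73.2 RPKM in WT against 46.6 in jmj17-1. BGLU25 was the highest in ratio of the 6, at 11.2 and 13.5 RPKM.

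The genes next to the members outside the LSU pairs had log2 ratios between -0.21 and 0.23. Those beside SDI1 were PANC, which acts in pantothenate synthesis, at 0.23, and AT5G48860, which was listed at 0 in jmj17-1. Beside SDI2 lay VAMP726 at 0.003 and AT1G04778 at -0.21, the latter under 1 RPKM in each library. SHM7 lay between AT1G36320 at 0.20 and AT1G36380 at -0.14. SULTR1;1 lay between AT4G08593, listed at 0 in WT, and SAH7 at -0.05. SULTR1;2 lay between SULTR2;2 at -0.19 and AT1G78010 at 0.09, and BGLU28 between BGLU15 at 0.07 and BGLU29. None of these neighbours with a mean of at least 1 RPKM was 2-fold different. AT5G48860, AT1G04778, AT4G08593 and BGLU29 lay under that mean, where the added 1 RPKM pulls log2 ratios toward 0.

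In WT the order of levels was SHM7, SDI2, LSU2, LSU3, SULTR1;2, LSU1, SDI1, LSU4, SULTR1;1 and BGLU28. In jmj17-1 SULTR1;2 stood above LSU3, and LSU4 above SDI1, while the other places were the same. Without replicates no neighbouring places in either order can be said to differ beyond the spread between seedlings.

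The promoter-side sequence of the 3 members past the 2-fold limit is shown, because a core motif of sulfur-responsive elements is known from promoters. Each is the 250 bases before the RefSeq gene start in TAIR10.1, 5′ to 3′ on the gene's strand, with capitals for GAGAC on either strand (GTCTC on the opposite) and for the G-box CACGTG, a motif bound by the light-signalling factor HY5.
LSU3 (chr3:18373148-18373397, minus strand): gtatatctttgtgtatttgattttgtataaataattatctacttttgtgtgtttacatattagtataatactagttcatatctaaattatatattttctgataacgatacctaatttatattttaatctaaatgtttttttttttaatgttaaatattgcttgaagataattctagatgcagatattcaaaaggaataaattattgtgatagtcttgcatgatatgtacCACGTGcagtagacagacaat
LSU1 (chr3:18375941-18376190, minus strand): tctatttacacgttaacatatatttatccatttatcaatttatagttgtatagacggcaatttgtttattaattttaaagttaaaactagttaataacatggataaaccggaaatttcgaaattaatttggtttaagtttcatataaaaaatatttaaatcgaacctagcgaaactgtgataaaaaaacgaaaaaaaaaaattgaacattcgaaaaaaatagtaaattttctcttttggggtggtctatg
SDI1 (chr5:19807854-19808103, minus strand): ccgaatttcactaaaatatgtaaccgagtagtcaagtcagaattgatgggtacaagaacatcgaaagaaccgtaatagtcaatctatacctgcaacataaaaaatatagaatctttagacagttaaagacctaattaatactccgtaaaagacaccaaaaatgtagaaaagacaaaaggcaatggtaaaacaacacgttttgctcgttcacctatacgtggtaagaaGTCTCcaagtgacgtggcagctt

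SDI1 held GTCTC from 23 to 19 bases before the gene start, LSU3 held the G-box from 21 to 16 bases before it, and LSU1 held neither. Over all 10 members GAGAC was present in 3 windows, those of SDI1, LSU4 and BGLU28, and the G-box in 1. The motifs do not overlap each other in these windows. Among the windows of 27443 protein-coding genes 25.8% held GAGAC and 6.49% the G-box. A match is a run of letters and not a bound site. A motif further upstream than these windows was not looked for, so absence here covers the 250 bases only.

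Other genes known to respond to low sulfur had log2 ratios between -0.74 and -0.01. All 9 genes of this list lay below 0, against 39.5% of all features analysed, with a median of -0.24, and 0 were 2-fold different. The list was chosen with earlier results of these data known, so nothing is read from that count. The lowest was GGCT2;1 (AT5G26220), which degrades glutathione, at 3.67 RPKM in WT against 1.80 in jmj17-1, a ratio of 0.491 (0.372 to 0.644). APR1, APR2 and APR3, which reduce activated sulfate, stood at 91.8, 98.7 and 110 RPKM in WT and at 70.4, 79.3 and 102 in jmj17-1. The vacuolar exporters SULTR4;1 and SULTR4;2 stood at 10.5 and 6.83 RPKM in WT and at 10.4 and 5.64 in jmj17-1. The counting interval of the SULTR4;1 ratio (0.858 to 1.14) includes no change. Members of this list also appear in the transporter and assimilation lists, so the lists are not independent. The 5 shoot markers also all lay below 0, with a median of -0.23.

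Of 16 genes of sulfate assimilation and cysteine synthesis, 8 lay below 0 and 8 above, and 0 were 2-fold different. Of all features analysed 39.5% lay below 0. SERAT2;1 (AT1G55920), a serine acetyltransferase that makes O-acetylserine, had the highest ratio of the list. It stood at 20.04 RPKM in WT against 37.2 in jmj17-1, a ratio of 1.86 (1.74 to 1.98). ATPS3, an ATP sulfurylase gene, had the lowest log2 ratio, at 24.3 RPKM in WT against 18.4 in jmj17-1.

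Regulators of the response differed by less than 2-fold, some of them beyond counting error. None of 7 was 2-fold different, and log2 ratios ran from -0.11 to 0.34. SLIM1 (AT1G73730) stood at 6.62 RPKM in WT against 7.46 in jmj17-1, a ratio of 1.13 (1.02 to 1.25). MYB28, the activator of aliphatic glucosinolate genes that SDI1 binds, stood at 24.3 RPKM in WT against 30.9 in jmj17-1. Its ratio of 1.27 (1.21 to 1.35) was the highest of the list. MYB76 was the lowest in ratio, at 2.15 and 1.92 RPKM. HY5 stood at 9.06 and 9.23 RPKM.

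**Figure D5:**
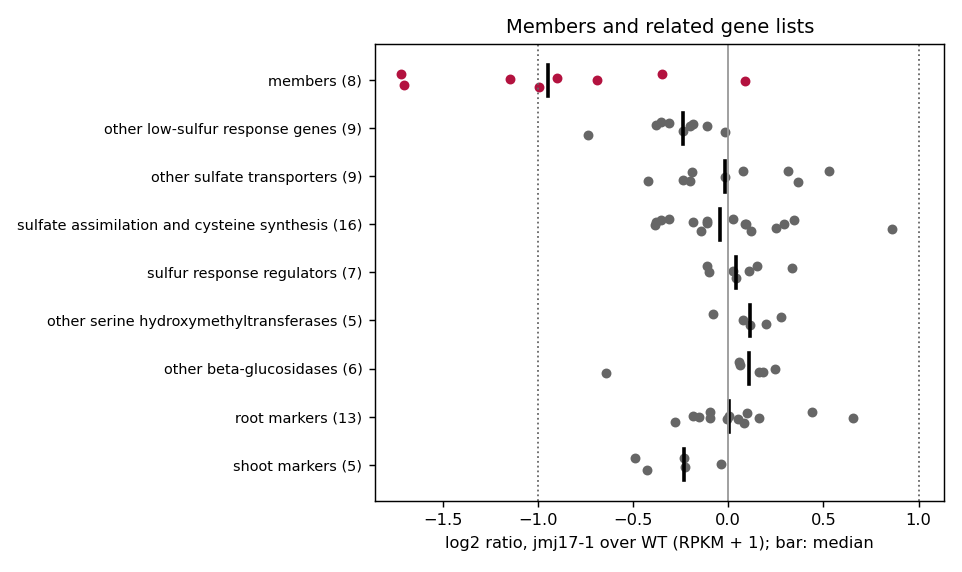
Log2 ratio of jmj17-1 over WT (RPKM + 1) for each gene with a mean of at least 1 RPKM (points, jittered vertically), by list, with the number of genes in brackets and the median as a bar. The members have a median of -0.95, the other low-sulfur response genes -0.24 and the shoot markers -0.23. The root markers lie about 0 with a median of 0.01.

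In the authors' deposited table each feature has a Z score and an unadjusted p that treat RPKM values as counts. There SHM7 had a p of 0.00931, LSU3 0.00271, SDI2 0.0124 and LSU1 0.0197. By the authors' deposited table SDI1 had a p of 0.242, although its ratio was lower than those of SDI2 and SHM7. Its level was far lower than theirs, and this p depends on level. The authors' deposited list named for a p of 0.05 held 4 of the 10 members, LSU1, LSU3, SDI2 and SHM7, and 1.53% of all features. Their deposited list named for 0.01 held LSU3, SDI2 and SHM7, 3 of 10, and 1.08% of all features, although the deposited p of SDI2 is above 0.01. The members were chosen with these values known, so nothing is read from these shares.

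Loci with the most similar pair of levels were sought for the 3 members past the 2-fold limit, by Euclidean distance in log2(RPKM + 1) over the 2 libraries. For LSU3 they were the calmodulin-like CML38 at a distance of 0.12, then AT3G04640 and AT2G29300. For LSU1 they were the defensin PDF1.2c at 0.33, the heat shock factor HSFB2A and ESP, a modifier of glucosinolate breakdown. For SDI1 they were SOB5 at 0.05, SAUR27 and CYP76C6. With 2 libraries such likeness is only nearness in level and ratio.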

How the data were processed

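RNA was sequenced from whole seedlings, in 1 WT and 1 jmj17-1 library made with an Illumina TruSeq RNA kit, per the labels' protocols. The deposited values are RPKM calculated by the authors, on the TAIR10 build per the submitters' processing notes. No label or header names the aligner, the counter, the feature lengths or strand-specific counting. The Z score and p-value of the authors' deposited table equalled, in all 26743 rows, the Z of 2 proportions with RPKM taken as counts out of 1000000 and its two-sided normal p, with no adjustment.

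Library totals were recovered from 309 features between 0 and 0.1 RPKM with the same read number in both libraries, as the commonest shared divisor of the products of length and library total that their RPKM values imply. With these totals 75.9% of features, and all 10 members, came out at whole reads over a whole length within a relative 1e-12. Read numbers are the smallest whole ones and may be multiples. Ratios have exact Clopper-Pearson 95% intervals of the share of reads, which cover counting error only.

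The log2 ratio used a pseudocount of 1 RPKM and features with a mean of at least 1 RPKM. With 1 library per genotype no test was made, and a fixed rule of 2-fold took its place. The members, lists and tests were chosen with earlier results of these data known. All members and their neighbours were named, as were list genes past the rule or otherwise the 2 largest in absolute log2 ratio, the 3 loci nearest in level to each member past it, and family members as values. Genes outside this rule, among them APR2, APR3, SULTR4;1, SULTR4;2, MYB76, HY5, MYB36, DIN11 and NAC062, were chosen after their values were seen. Alternatives changed the pseudocount, the filter and the scaling.

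Positions and sequences came from RefSeq's annotation of TAIR10.1, in which all 10 members were found, while the deposited table has no coordinates. Transcripts were compared with BLAST+ 2.17.0, coding sequences with Biopython 1.88, and intervals came from SciPy 1.17.1. The scripts were tested on simulated data.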

Additional observations from a re-analysis of the deposited data

How the results depend on the processing

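Under the 7 alternatives tried, the 8 members above the filter stayed on their side of a log2 ratio of 0 wherever they were measured, but a filter at a mean of 5 RPKM removed SDI1 and LSU4, which then have no value. The number at least 2-fold lower ran from 2 to 4 against 3 as reported, and 0 members were higher under any alternative. SDI2 came past the limit at a pseudocount of 0.1 RPKM (-1.03), with the median of all features set to 0 (-1.04) and under quantile normalization (-1.03). SDI1 left it at a pseudocount of 5 RPKM (-0.50), because its level is low. The member median of -0.95 became -0.68 at a pseudocount of 5 RPKM and -0.79 over all 10 members with no filter. Among all features, 110 lower and 74 higher became 49 and 25 at a pseudocount of 5 RPKM, 142 were higher at 0.1 RPKM, and 71 were lower at a mean of at least 5 RPKM. A larger pseudocount shrinks log2 ratios and a stricter filter leaves fewer features by construction. The median of the other low-sulfur response genes ran from -0.28 to -0.15, and that of the shoot markers from -0.27 to -0.09. Under quantile normalization 3 of the 5 shoot markers lay below 0, against all 5 as reported. Medians of the other sulfate transporters, the regulators, the assimilation genes and the root markers crossed 0. No paired analysis was possible because each genotype had 1 library. Depth limits SULTR1;1, BGLU28 and LSU4, whose counting intervals include no change.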
